A study of Mus musculus with 12 samples.

Results

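The unfolded protein and ATF4 stress response was followed through 10 genes chosen by name, Atf4, Atf5, Ddit3, Trib3, Xbp1, Hspa5, Asns, Chac1, Herpud1 and Dnajb9, out of 23997 genes with a value. All 10 were found in the deposited tables by their own symbol, and they were chosen with earlier results of these data known. RNA-seq measured these genes in bone marrow-derived macrophages (BMDMs) of WT and Pim1-/- mice, and the values were read as FPKM, a level scaled to transcript length and to the mapped fragments of the library. The 12 libraries form 4 groups of 3, namely WT untreated, Pim1-/- untreated, WT with LPS and Pim1-/- with LPS. LPS, a bacterial lipopolysaccharide sensed by TLR4, was given at 100 ng/ml for 4 h. All mice were C57BL/6 males of 8 to 10 weeks, and their marrow cells had grown for 7 d with 10 ng/ml recombinant human M-CSF. The Pim1-/- mice lack exons I to V of Pim1, which encodes a serine/threonine kinase, through a germline CRISPR/Cas9 deletion. The labels do not say whether the 3 libraries of a group came from separate mice or cultures, so the p-values measure only the spread between libraries, which may be technical.

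Unfolded proteins in the endoplasmic reticulum (ER) are sensed by IRE1, PERK and ATF6. IRE1 splices Xbp1 mRNA so that it encodes an active transcription factor, and cleaved ATF6 and XBP1 drive genes of ER chaperones and of ER-associated degradation. PERK, like the kinases GCN2, PKR and HRI, phosphorylates eIF2alpha, which lowers general translation while favouring that of ATF4, and ATF4 in turn drives genes of amino acid supply and the factor CHOP. Activated macrophages are secretory cells in which both arms are known to operate. A gene value from these libraries does not separate spliced from unspliced Xbp1 and says nothing of ATF4 protein, which is set largely by translation.

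The genotypes differed in both directions among the 10 genes, and no test compared their roles. Among the genes of the ATF4 arm, Asns was 5.75-fold higher in untreated Pim1-/- cells than in WT cells and 7.77-fold higher after LPS, and Atf4 itself was 1.89-fold higher without LPS and 1.19-fold higher with it. Atf5 was 1.68-fold higher without LPS but did not pass the test with LPS (1.06-fold), and Ddit3 did not pass without LPS (0.95-fold) and was 1.64-fold higher with it. Trib3 (4.78-fold and 7.56-fold) and Chac1 (8.38-fold and 17.3-fold) were higher too, but they were tested only because Pim1-/- libraries reached 1 FPKM, so their passing adds no support. Among the genes of the ER folding arm, Herpud1 was 2.17-fold lower in Pim1-/- cells without LPS and 1.79-fold lower with it, and Dnajb9 1.43-fold and 1.51-fold. Xbp1 was 1.35-fold lower without LPS and 2.32-fold lower with it, and Hspa5 1.12-fold and 1.82-fold. These folds are ratios of group means in FPKM (n = 3 libraries each), and the differences passed the test given below except where stated.

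Promoter stretches are shown for the 5 genes whose window held either of 2 stress elements, since members of both directions carry them. Promoter windows of 300 bases, 250 before and 50 after a gene's start, were taken from RefSeq on GRCm38.p6, and all 10 genes had at least 1 window. The C/EBP-ATF element, TGATGNAAN, through which ATF4 is known to act, was searched on both strands and was found in 4 of the 10 genes and in 3.96% of 32817 mouse windows. The ER stress element, CCAAT followed after 9 bases by CCACG, was found in Hspa5 and in 0.119% of all windows. Each stretch below has 29 bases and is written 5′ to 3′ on the strand of its gene, with the element in capitals. Distances count from the RefSeq start, which can differ from the start in the GENCODE gene spans printed further on. By those spans the Asns and Hspa5 elements lie inside the gene and the Trib3 element lies outside it. In Trib3, Chac1 and Herpud1 the element lies on the opposite strand, so that its reverse complement is read.
Asns, chr6:7693214-7693242, minus strand, element 23 to 15 bases before the start: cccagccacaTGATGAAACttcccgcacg
Trib3, chr2:152344029-152344057, minus strand, element at bases 14 to 22 after the start: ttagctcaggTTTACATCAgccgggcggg
Chac1, chr2:119351038-119351066, plus strand, element 194 to 186 bases before the start: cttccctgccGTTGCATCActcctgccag
Herpud1, chr8:94386306-94386334, plus strand, element 113 to 105 bases before the start: accacggcggGTTGCATCAgcccgcaccc
Hspa5, chr2:34772020-34772048, plus strand, element 65 to 47 bases before the start: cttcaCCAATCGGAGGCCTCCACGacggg

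The core TGCATCA is the same in the Chac1 and Herpud1 stretches, although Chac1 was higher and Herpud1 lower in Pim1-/- cells. CCAAT alone was found in 7 of the 10 genes and in 37.4% of all windows, and the Hspa5 match includes the CCAAT of its ER stress element. TGACGTGG (0.676% of windows) and TGACGTCA (1.79%), both searched on both strands, were found in none of the 10. A match is a stretch of letters, and the libraries hold no measurement of binding to it.

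Pim1 checked the labels. It was listed at 21.5 to 25.0 FPKM in untreated WT libraries and at 8.00 to 9.51 in untreated Pim1-/- libraries, and at 630.2 to 665.0 against 205.0 to 235.8 after LPS. The genotypes did not overlap at either time, but Pim1-/- libraries were not at 0, and the values do not tell which exons gave these reads. The FPKM of all genes summed to 452511 to 489710 in untreated libraries and to 713307 to 849323 after LPS. All 10 macrophage markers reached 1 FPKM in some libraries, although Cd163 had means of 0.10 and 0.077 FPKM in WT and Pim1-/- cells with LPS, and their summed level, mostly Lyz2, was 27890 to 29940 FPKM in untreated WT, 14400 to 15320 in untreated Pim1-/-, 30810 to 31300 in WT with LPS and 15920 to 17790 in Pim1-/- with LPS. Of the 10 macrophage markers, 9 passed the test given below as lower in Pim1-/- cells at each time and none as higher. Over all genes tested 42.8% passed as lower without LPS and 42.2% with it. Of 14 genes of dividing cells, all 14 passed as higher in untreated Pim1-/- cells, where 33.4% of all genes did. Their summed level, mostly Pcna, was 799.2 to 879.2 against 133.4 to 147.9 FPKM in WT. After LPS 13 passed as higher (36.4% of all genes) and 1 as lower (42.2%), at 659.7 to 745.2 against 352.5 to 357.2. Pcna alone averaged 433.5 against 109.9 FPKM without LPS and 546.0 against 313.1 after it, so these sums say little of the other genes. Gene by gene, the median difference of the list on the log2(FPKM + 1) scale was 3.12 before LPS and 2.05 after. All 14 passed at more than 2-fold higher before LPS, and 12 did after. In bulk RNA, a different share of cells of a type and a different amount of RNA per cell cannot be told apart. These marker levels moved with genotype like the values below, and their part in them was not tested. Markers of B and plasma cells (7 of 8), erythroid cells (5 of 5), granulocytes (5 of 7), dendritic cells (6 of 8) and T and NK cells (5 of 7) were under 1 FPKM in all libraries, with Pax5, Mzb1, Cd3e, Cd3g, Cd8a and Ncr1 at 0. The summed T and NK level, led by Lck at up to 15.9 FPKM, was 4.93 to 5.57 in untreated WT, 0.95 to 1.05 in untreated Pim1-/-, 17.7 to 18.4 in WT with LPS and 6.39 to 7.25 in Pim1-/- libraries with LPS. Stromal markers (3 of 5 under 1 FPKM throughout) summed to 2.72 to 3.15 FPKM in untreated WT, 0.81 to 1.00 in untreated Pim1-/-, 3.73 to 4.74 in WT with LPS and 0.98 to 1.64 in Pim1-/- libraries with LPS. Granulocyte markers, led by S100a8 at up to 5.28 FPKM, summed to 1.6 to 2.0 in untreated WT and 3.3 to 4.3 in untreated Pim1-/-. With LPS they summed to 6.0 to 8.2 in WT and 3.7 to 6.2 in Pim1-/- libraries. Of mast cell and basophil markers, 4 of 5 were under 1 FPKM throughout. They summed to 1.69 to 1.89 in untreated WT and 2.06 to 2.76 in untreated Pim1-/- libraries. With LPS these sums were 0.66 to 0.88 and 0.54 to 0.63. The part of these lists in the genotype differences was not tested.

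Atf4 (chr15:80255184-80257541, GRCm38, plus strand), the transcription factor at the centre of the eIF2alpha arm, was measured at 71.9, 72.8 and 71.2 FPKM in the untreated WT libraries and at 142.2, 137.1 and 128.4 in the untreated Pim1-/- libraries. With LPS it was at 210.9, 193.6 and 204.4 in WT and at 246.0, 248.2 and 231.1 in Pim1-/- libraries. The 4 groups did not overlap, and the order ran from untreated WT through untreated Pim1-/- and LPS-treated WT to LPS-treated Pim1-/- cells. On the log2(FPKM + 1) scale, on which all tests were run, Atf4 was higher in Pim1-/- cells by 0.91 ± 0.05 (SE) without LPS (limma adjusted p = 1.1e-10) and by 0.25 ± 0.05 with LPS (limma adjusted p = 0.00015). The gap was smaller after LPS, and that change of -0.66 passed its own test (95% interval -0.80 to -0.52, limma adjusted p = 5.5e-07).

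Atf5 (chr7:44812256-44816658, minus strand), a related bZIP factor that is also translated under eIF2alpha phosphorylation, stood at 16.7, 17.7 and 17.2 FPKM in untreated WT and at 28.7, 28.2 and 29.8 in untreated Pim1-/- libraries. After LPS the values of WT (33.8, 28.7 and 32.9) and Pim1-/- libraries (32.4, 31.6 and 37.2) overlapped. The genotype difference was 0.71 ± 0.06 without LPS (limma adjusted p = 8.7e-08) and did not pass with LPS, at 0.08 with a 95% interval of -0.06 to 0.22 (limma adjusted p = 0.26). That last value depends on scaling, since it passed after quantile normalization (0.26) and after scaling to equal FPKM sums (0.28). Atf5 shares its locus with Nup62 and Il4i1 on the opposite strand, and Il4i1 had means of 0.80, 0.18, 279.0 and 141.1 FPKM in the order untreated WT, untreated Pim1-/-, WT with LPS and Pim1-/- with LPS. The library kit marks strand, but the strand setting of the counting is not given in the sources used here, so the Atf5 values after LPS are uncertain.

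Ddit3 (chr10:127290774-127296288, plus strand) encodes CHOP, the factor that links lasting ER stress to cell death. It was at 16.8, 18.5 and 15.0 FPKM in untreated WT and at 15.7, 16.1 and 16.0 in untreated Pim1-/- libraries, where the genotypes overlapped. After LPS the WT libraries stood at 9.43, 10.3 and 8.91 FPKM, below all others, and the Pim1-/- libraries at 15.8, 15.5 and 15.7. The genotype difference did not pass in untreated cells (-0.07, 95% interval -0.20 to 0.07, limma adjusted p = 0.37) and was 0.66 ± 0.06 with LPS (limma adjusted p = 1.5e-07). Without the third untreated WT library the untreated difference did pass, at -0.14, and without the second it was 0. Mars, a methionyl-tRNA synthetase gene that overlaps Ddit3 on the other strand, had group means of 9.23, 17.6, 3.99 and 14.9 FPKM in the same order of groups, so the Ddit3 values are uncertain in the same way as those of Atf5.

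**Figure D1:**
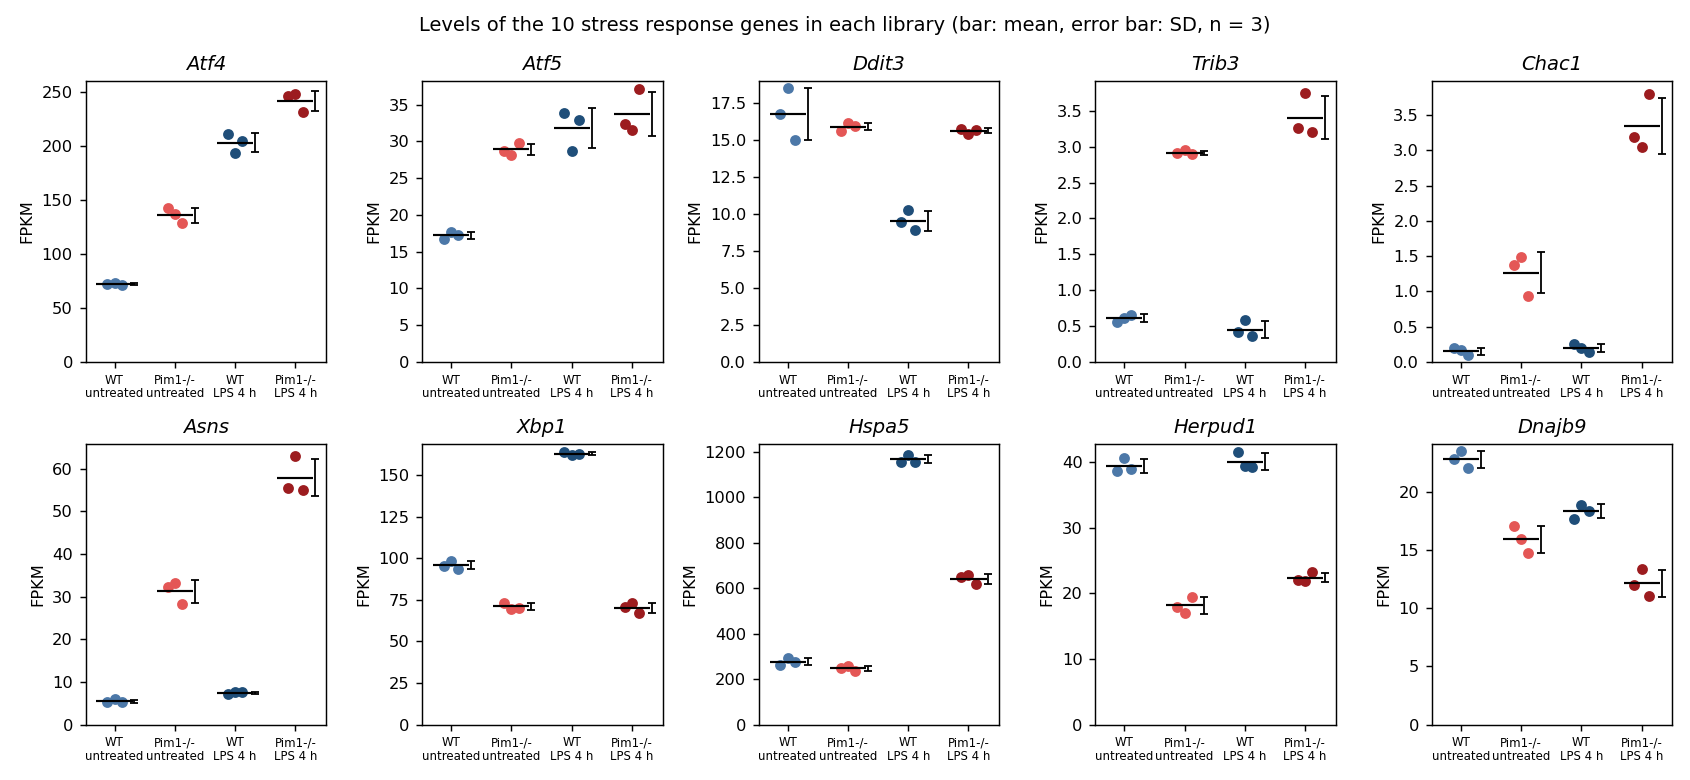
Level of each of the 10 genes in FPKM on the y axis, for the 4 groups on the x axis, with a point per library a line at the mean of 3 libraries and an error bar for the SD. Asns, Trib3 and Chac1 sit higher in both Pim1-/- groups than in both WT groups, Herpud1 and Dnajb9 lower, and Xbp1 and Hspa5 part most after LPS.

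Asns (chr6:7675169-7693254, minus strand), asparagine synthetase and a standard readout of ATF4 activity, had the largest genotype difference of the 10 genes on the log2(FPKM + 1) scale at both times, although the ratio of means was larger for Chac1. Its level was 5.21, 5.90 and 5.22 FPKM in untreated WT libraries and 32.4, 33.3 and 28.2 in untreated Pim1-/- libraries. With LPS it was 7.23, 7.55 and 7.58 in WT and 55.6, 63.0 and 55.1 in Pim1-/- libraries. The groups did not overlap, and both WT groups lay below both Pim1-/- groups. The difference was 2.32 ± 0.07 without LPS (limma adjusted p = 1.1e-13), which ranked 122nd from the highest among 10581 genes tested. It was 2.80 ± 0.07 with LPS (limma adjusted p = 2.0e-14), where it ranked 22nd.

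Trib3 (chr2:152337422-152344032, minus strand) encodes a pseudokinase that CHOP and ATF4 induce and that restrains both. It was low in WT cells, at 0.56, 0.61 and 0.66 FPKM without LPS and 0.41, 0.58 and 0.36 with it. In Pim1-/- libraries it was at 2.91, 2.95 and 2.89 FPKM without LPS and 3.26, 3.75 and 3.21 with it, so the genotypes did not overlap. On the log2(FPKM + 1) scale the differences were 1.28 ± 0.07 (limma adjusted p = 9.3e-11) and 1.60 ± 0.07 (limma adjusted p = 6.3e-12).

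Chac1 (chr2:119351229-119354381, plus strand) encodes a glutathione-degrading enzyme downstream of ATF4 and CHOP, and by group mean it was the lowest of the 10 genes. Its values were 0.19, 0.16 and 0.10 FPKM in untreated WT, 1.38, 1.48 and 0.94 in untreated Pim1-/-, 0.25, 0.19 and 0.14 in WT with LPS and 3.19, 3.04 and 3.80 in Pim1-/- libraries with LPS. The WT groups overlapped each other and the Pim1-/- groups overlapped no other group. The difference was 0.97 ± 0.09 without LPS (limma adjusted p = 8.9e-08) and 1.86 ± 0.09 with LPS (limma adjusted p = 3.6e-11). Chac1 and Trib3 passed the filter on low values (at least 1 FPKM in at least 3 libraries) only through Pim1-/- libraries, so they had to differ, and counts are given below with and without them. FPKM holds no counts, but from the spacing of low values the level of Chac1 was estimated to rest on 4 to 10 fragments per WT library and 60 to 155 per Pim1-/- library, and that of Trib3 on 14 to 53 and 167 to 245. The pseudocount of 1 makes the log2 differences of these genes smaller than the ratios of their means.

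Xbp1 (chr11:5520659-5525893, plus strand), the target of IRE1 and the driver of ER expansion in secretory cells, was at 95.4, 98.2 and 93.4 FPKM in untreated WT and at 73.3, 69.6 and 70.2 in untreated Pim1-/- libraries. With LPS it was at 163.9, 161.9 and 162.6 in WT libraries but at 70.5, 73.0 and 67.2 in Pim1-/- libraries, which overlapped the untreated libraries of that genotype. The genotype difference was -0.42 ± 0.04 without LPS (limma adjusted p = 1.6e-07) and -1.20 ± 0.04 with LPS (limma adjusted p = 7.4e-13). It was wider with LPS, and the change of -0.78 passed its own test (95% interval -0.90 to -0.66, limma adjusted p = 1.8e-08).

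Hspa5 (chr2:34771970-34777547, plus strand) encodes BiP, the ER chaperone that holds the 3 sensors inactive, and per length it was the highest of the 10 genes in every group. It was at 261.9, 293.1 and 273.4 FPKM in untreated WT and 248.6, 257.0 and 235.4 in untreated Pim1-/- libraries, groups that were close but did not overlap. With LPS it was at 1155, 1187 and 1156 in WT libraries and 646.8, 655.6 and 616.0 in Pim1-/- libraries. The difference was -0.16 ± 0.05 without LPS (limma adjusted p = 0.0069) and -0.87 ± 0.05 with LPS (limma adjusted p = 2.1e-10), and the change between them of -0.71 passed as well (limma adjusted p = 3.1e-07).

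Herpud1 (chr8:94386438-94395377, plus strand), an ER membrane protein of the degradation complex, showed the largest decrease of the 10 genes in untreated cells. It was at 38.7, 40.7 and 38.9 FPKM in untreated WT libraries and at 18.0, 17.0 and 19.5 in untreated Pim1-/- libraries. After LPS the WT libraries (41.6, 39.4 and 39.3) overlapped the untreated WT libraries, while the Pim1-/- libraries (22.1, 21.9 and 23.2) lay above the untreated ones of that genotype and below all WT libraries. The difference was -1.08 ± 0.05 without LPS (limma adjusted p = 3.4e-11), the 297th from the lowest of 10581, and -0.81 ± 0.05 with LPS (limma adjusted p = 8.7e-10).

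Dnajb9 (chr12:44205559-44210326, minus strand) encodes ERdj4, a co-chaperone of BiP that XBP1 induces. It was at 22.8, 23.5 and 22.1 FPKM in untreated WT, 17.1, 15.9 and 14.8 in untreated Pim1-/-, 17.7, 18.9 and 18.4 in WT with LPS and 12.0, 13.3 and 11.02 in Pim1-/- libraries with LPS. At each time the 3 Pim1-/- libraries were below the 3 WT libraries. The difference was -0.49 ± 0.06 without LPS (limma adjusted p = 4.4e-06) and -0.56 ± 0.06 with LPS (limma adjusted p = 9.3e-07), and these did not differ from each other past the threshold (change of -0.07, interval -0.26 to 0.12, limma adjusted p = 0.53).

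**Figure D2:**
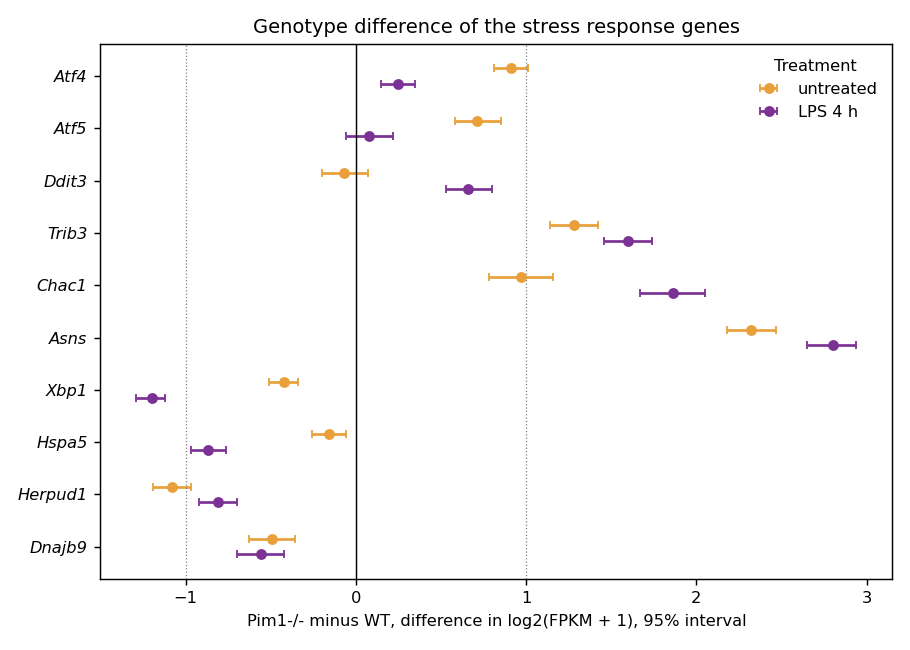
Genotype difference (Pim1-/- minus WT) of the 10 genes on the log2(FPKM + 1) scale, untreated and after LPS, with points for the fitted differences, bars for their 95% intervals and dotted lines at a 2-fold difference. Asns is highest at both times (2.32 and 2.80), while Xbp1 moves from -0.42 to -1.20 and Hspa5 from -0.16 to -0.87.

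In counts, passing means an unadjusted p under 0.05 together with an FDR under 0.1 in the limma fit, and called means passing with a difference of more than 2-fold. In untreated cells 5 of the 10 genes passed as higher in Pim1-/- cells (33.4% of all genes tested did) and 4 as lower (42.8%), and only Ddit3 did not pass. Of these, Asns and Trib3 were called higher (4.4% of all genes) and Herpud1 lower (3.37%). With LPS 5 again passed as higher (36.4% of all genes) and 4 as lower (42.2%), and Asns, Chac1 and Trib3 were called higher (3.51%) and Xbp1 lower (5.15%). Since so many genes passed in both directions, a count of members that passed is close to the background, and the sizes above carry more. Without Trib3 and Chac1, 3 of the other 8 genes passed as higher and 4 as lower at each time, with 1 called in each direction. The median difference of the 10 genes was 0.32 without LPS and 0.17 with it, against -0.05 and -0.03 over all genes, but without Trib3 and Chac1 it was -0.11 and -0.24, so its sign rests on them. No member changed direction between genotypes under median-ratio scaling, quantile normalization or scaling to equal FPKM sums, although the last moved the median of all genes after LPS from -0.03 to 0.13.

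With LPS the 10 genes took different courses in WT and Pim1-/- cells. In WT cells Hspa5 was 4.22-fold, Atf4 2.82-fold, Atf5 1.85-fold and Xbp1 1.70-fold higher with LPS than without, and Ddit3 was 1.76-fold lower. In Pim1-/- cells the same comparison gave 2.59-fold for Hspa5, 1.78-fold for Atf4, 1.17-fold for Atf5, 0.99-fold for Xbp1 and 0.98-fold for Ddit3, while Chac1 was 2.64-fold and Asns 1.85-fold higher. The comparisons with LPS share their untreated libraries with the genotype comparison, so they are set side by side and are not independent of it.

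In WT cells 5 of the 10 genes passed as higher with LPS (45% of all genes tested) and 3 as lower (44.6%). Hspa5 at 2.08 and Atf4 at 1.48 were called higher (20.1% of all genes) and none was called lower (14.7%). In Pim1-/- cells 7 passed as higher (42.2%) and 1, Dnajb9 at -0.37, as lower (42.9%). Hspa5 at 1.37 was the only gene called higher (14.6%), and none was called lower (10.4%). Chac1 (0.05) and Herpud1 (0.02) did not pass in WT cells, nor did Xbp1 (-0.02) and Ddit3 (-0.02) in Pim1-/- cells. Without Trib3 and Chac1 the counts were 5 higher and 2 lower in WT cells and 5 higher and 1 lower in Pim1-/- cells.

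Directions with LPS depend on scaling, and the FPKM sums were higher with LPS. Scaling to equal FPKM sums moved the median of all genes from 0 to -0.71 in WT cells and from -0.01 to -0.62 in Pim1-/- cells, and quantile normalization moved it to -0.17 and -0.18. Hspa5 was higher with LPS in both genotypes, and Ddit3 in WT and Dnajb9 in both were lower, under each of the 3 scalings tried, but quantile normalization left Hspa5 at 0.96 in WT and 0.42 in Pim1-/- cells. In WT cells Atf4 fell below 2-fold, at 0.43 after quantile normalization and 0.68 with equal sums, and Atf5 no longer passed with equal sums (0.07). Xbp1 turned to -0.32 after quantile normalization and to -0.04 with equal sums, and Asns, Chac1, Trib3 and Herpud1 also changed sign under at least 1 of these. In Pim1-/- cells Atf4 was at -0.01 after quantile normalization, and Atf5, Trib3 and Herpud1 changed sign too. Xbp1 and Ddit3, which did not pass in Pim1-/- cells, passed as lower after quantile normalization (-0.71 and -0.25) and with equal sums (-0.68 and -0.66). The split of called genes was 2130 higher and 1556 lower in WT cells as deposited, 1644 and 1807 after quantile normalization and 1242 and 4199 with equal sums. In Pim1-/- cells it was 1546 and 1103 as deposited and 1032 and 3201 with equal sums.

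**Figure D3:**
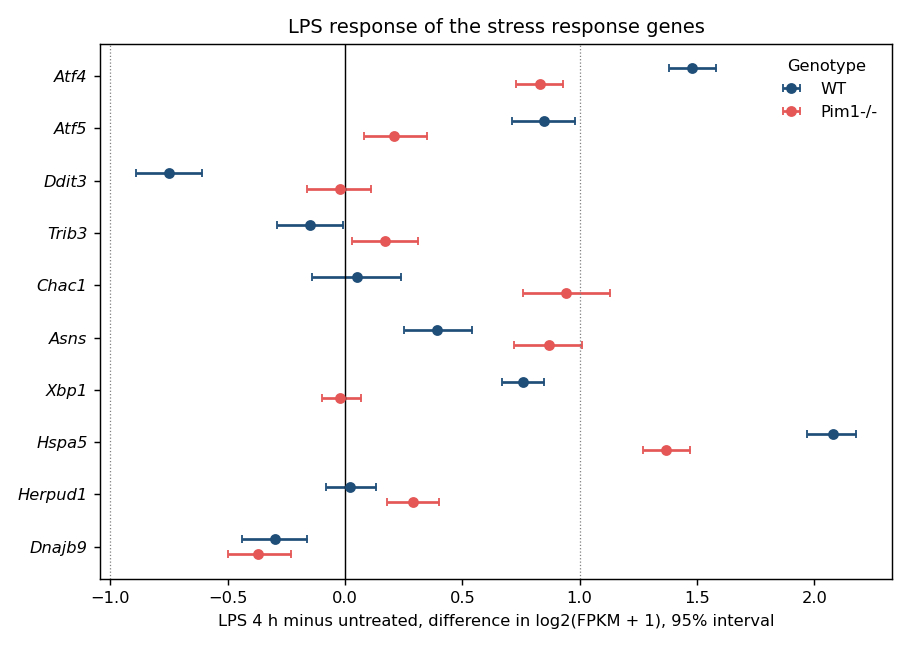
Difference between LPS-treated and untreated cells (LPS 4 h minus untreated) of the 10 genes on the log2(FPKM + 1) scale in WT and Pim1-/- cells, with bars for 95% intervals and dotted lines at a 2-fold difference. Xbp1 is at 0.76 in WT and -0.02 in Pim1-/- cells, Ddit3 at -0.75 and -0.02, and Chac1 at 0.05 and 0.94.

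The difference between the responses, tested as an interaction term, is free of a shift on the log2(FPKM + 1) scale that both genotypes share. A shared scaling factor does not cancel fully for genes near or below the pseudocount of 1, such as Trib3 and Chac1. It passed as higher in Pim1-/- cells for 5 of the 10 genes (31.3% of all genes tested) and as lower for 4 (34.7%). None reached 2-fold, against 2.24% of all genes called higher and 4.43% called lower. Without Trib3 and Chac1, 3 passed as higher and 4 as lower. Xbp1 (-0.78), Hspa5 (-0.71), Atf4 (-0.66) and Atf5 (-0.63) had the lower response in Pim1-/- cells. Chac1 (0.89), Ddit3 (0.73), Asns (0.47), Trib3 (0.32) and Herpud1 (0.27) had the higher one, but Asns turned to -0.10 after quantile normalization and Trib3 no longer passed with equal sums (0.19). The median of all genes was 0 and moved to 0.13 with equal sums, where 415 genes were called higher and 425 lower instead of 237 and 469.

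The wider pathway was read from lists of genes by role. These lists were chosen with earlier results of these data known, so their counts beside the share of all genes are a description only. Of the kinases, sensors and phosphatase subunits upstream of the members, 9 of 12 passed as lower in untreated Pim1-/- cells and 3 as higher, with a median of -0.24, where 42.8% and 33.4% of all genes did. Ern1, which encodes IRE1alpha, averaged 5.81 ± 0.397 FPKM (SD over 3 libraries) in untreated WT and 3.04 ± 0.237 in untreated Pim1-/- cells, and Eif2ak3, which encodes PERK, at 8.48 ± 0.477 and 5.92 ± 0.200. Atf6 was at 16.1 ± 0.385 and 13.1 ± 0.258 FPKM. After LPS Atf6 was still lower (-0.45, limma adjusted p = 2.4e-07), while Ern1 (0.11) and Eif2ak3 (-0.03) did not differ past the threshold. Ppp1r15a, the GADD34 subunit that reverses eIF2alpha phosphorylation, was lower in Pim1-/- cells at both times (-0.82 and -0.74), and Eif2ak2, the kinase PKR, was lower as well (-0.10 and -0.36). Eif2s1, eIF2alpha itself, was higher without LPS (0.81) and did not pass with it (0.10). Over the list after LPS, 3 passed as higher (36.4% of all genes) and 6 as lower (42.2%), and the median of -0.10 was 0.07 with equal sums.

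Genes of amino acid synthesis and transport linked to ATF4 were mostly higher in Pim1-/- cells, as was Asns. Of 14 tested, 11 passed as higher and 1 as lower in untreated Pim1-/- cells, and 12 as higher and none as lower with LPS, with medians of 1.09 and 0.92, where 33.4% and 36.4% of all genes passed as higher. In that list 7 genes were called higher without LPS and 6 with it, against 4.4% and 3.51% of all genes. Phgdh, the entry enzyme of serine synthesis, rose from 6.84 ± 0.458 FPKM in WT to 59.8 ± 2.65 in Pim1-/- cells without LPS (2.95, limma adjusted p = 5.9e-16) and from 13.6 ± 0.384 to 83.2 ± 1.82 with LPS (2.53, limma adjusted p = 3.5e-15). Slc38a2, a neutral amino acid transporter, was higher by 0.30 and 0.86. Slc3a2, the heavy chain of several amino acid transporters and the most abundant of the list, did not pass at either time (-0.07 and -0.02). The genes left out for low values, Pycr1, Cth, Slc1a4 and Slc6a9, had means under 1 FPKM in every group.

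Aminoacyl-tRNA synthetases, another known target set of ATF4, were also mostly higher. Of 13, 12 passed as higher in Pim1-/- cells at each time, none as lower without LPS and 1 as lower with it, with medians of 0.68 and 0.92, against the same 33.4% and 36.4% of all genes higher. No synthetase was called without LPS and 5 were called higher with it (3.51% of all genes). Nars rose in Pim1-/- cells by 0.18 without LPS and 0.85 with LPS, and Gars by 0.56 and 0.57. Wars, which interferon also induces, was the exception, at 0.10 without LPS (limma adjusted p = 0.098) and lower by 0.49 with LPS (99.1 ± 0.909 against 70.2 ± 4.62 FPKM, limma adjusted p = 3.0e-07). The C/EBP-ATF element lay in 5 of the 8 synthetases that had a promoter window, against 3.96% of all windows. Of genes with a window, it lay in 4 of 15 of the amino acid list, Phgdh not among them. In the list of other ATF4 and CHOP targets, described next, it lay in 5 of 13. Among ER chaperones it lay in 1 of 17, and in the sensor, degradation and heat shock lists in none. The element is shown for Gars on the plus strand at chr6:55037960-55037988, where its reverse complement is read.
Gars: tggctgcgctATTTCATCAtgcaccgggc

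Other targets and partners of ATF4 and CHOP differed in both directions. Without LPS 5 of 12 passed as higher and 5 as lower (median -0.14), and with LPS 7 as higher and 5 as lower (median 0.18), where 33.4% and 42.8% of all genes did so without LPS and 36.4% and 42.2% with it. Atf3, a stress-induced repressor, was lower in Pim1-/- cells by 0.40 and 0.21 on the log2 scale. Cebpb, a partner of ATF4 on the C/EBP-ATF element, was at -0.30 and -0.32, and both passed. Nupr1 was higher without LPS (0.31) and lower with it (-1.87), since LPS took it from 14.3 ± 1.48 to 557.3 ± 26.7 FPKM in WT but from 18.0 ± 1.84 to 151.4 ± 4.61 in Pim1-/- cells. Stc2, Vldlr, Fgf21 and Tnfrsf10b were too low to be tested.

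**Figure D4:**
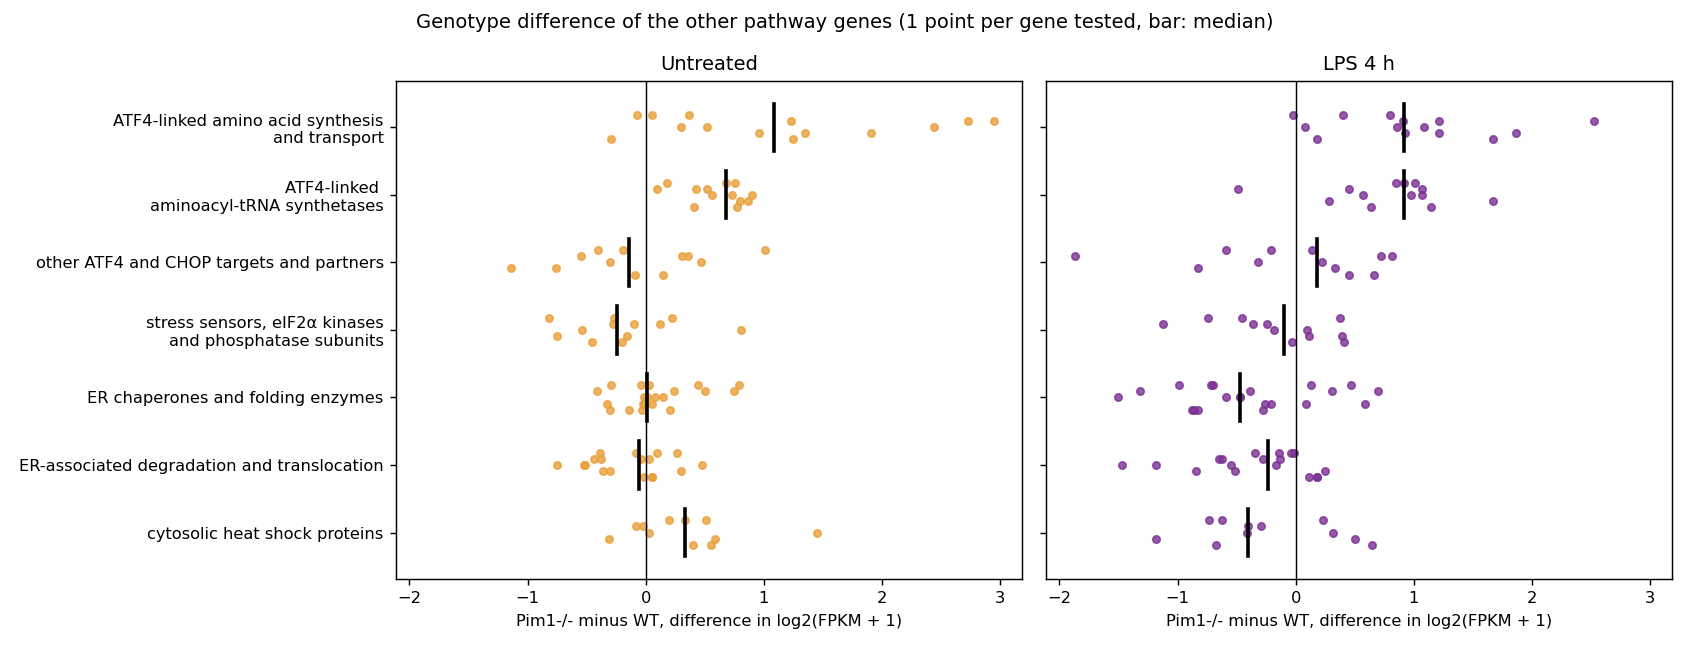
Genotype difference (Pim1-/- minus WT, log2(FPKM + 1) scale) of every tested gene of the 7 pathway lists, untreated and after LPS, with a point per gene and a line at the list's median. The amino acid and tRNA synthetase lists lie mostly above 0 at both times (medians 1.09 and 0.92, 0.68 and 0.92), and the ER chaperones move from a median of 0.01 to -0.47. The median of -0.47 became -0.22 after quantile normalization and -0.27 with equal FPKM sums.

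ER chaperones and folding enzymes differed between genotypes mainly after LPS. Without LPS 7 of 21 passed as higher in Pim1-/- cells (33.4% of all genes did), 5 as lower (42.8%) and 9 did not pass (median 0.01). With LPS 15 passed as lower, 5 as higher and 1 did not pass (median -0.47), where 42.2% of all genes passed as lower and 36.4% as higher. After quantile normalization 12 passed as lower and 6 as higher (median -0.22), and with equal sums also 12 and 6 (median -0.27). The difference between the responses passed as lower for 17 of 21 (34.7% of all genes) and as higher for 2 (31.3%). Its median was -0.46 as deposited, -0.25 after quantile normalization and -0.32 with equal sums. Calr, a lectin chaperone, was at 391.7 ± 9.34 FPKM in WT and 241.3 ± 15.8 in Pim1-/- cells after LPS (-0.70, limma adjusted p = 2.1e-09). Hsp90b1, the ER HSP90, was higher by 0.24 in untreated Pim1-/- cells and lower by 0.39 on the log2 scale with LPS. Pdia3, a disulfide isomerase, did not pass without LPS (0.08) and was lower with it (-0.47). The ER stress element of Hspa5, in 0.119% of all windows, was also found in 6 of the 17 genes of this list with a promoter window. Among them, Calr on the minus strand at chr8:84847070-84847098 (reverse complement read) and Hsp90b1 on the minus strand at chr10:86705633-86705661 are set beside the Hspa5 stretch for comparison.
Calr: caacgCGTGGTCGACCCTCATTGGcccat
Hsp90b1: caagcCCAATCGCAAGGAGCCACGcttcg

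Genes of ER-associated degradation and translocation had a median without LPS close to that of all genes (-0.06 against -0.05). Of 18 tested, 3 passed as higher without LPS (33.4% of all genes did) and 8 as lower (42.8%). With LPS 3 passed as higher (36.4% of all genes) and 12 as lower (42.2%). The medians were -0.06 and -0.23, but the latter was -0.01 after quantile normalization and -0.03 with equal sums. Vcp, the ATPase that extracts proteins from the ER, was at -0.04 without LPS, which did not pass, and -0.13 with LPS, which did. The translocon subunits Sec61b (0.27) and Sec61g (0.48) were higher without LPS, and with LPS Sec61b did not pass (-0.01) and Sec61g was lower (-0.17). Derl3 was too low to be tested.

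Across the 12 libraries, which share their 4 groups, Pearson's r between genes on the log2(FPKM + 1) scale is given as a description only. Asns went with Chac1 (r = 0.97) and Trib3 (r = 0.97), Atf4 with Atf5 (r = 0.94), and Trib3 ran against Herpud1 (r = -0.95). Trib3 and Chac1 passed the filter only through Pim1-/- libraries, so they had to differ by genotype. A high r of either with another gene that differs by genotype adds no support. Of all genes tested, the nearest to Asns were the synthetase genes Lars and Eprs (both r = 0.995) and Atp8b4 (r = 0.993). The nearest to Xbp1 were Il4ra (r = 0.992), the ER chaperone gene Hyou1 (r = 0.989) and 5031414D18Rik (r = 0.988). Atf4 was nearest to Odc1 and Psmb7 (both r = 0.996) and Cct8 (r = 0.995), Atf5 to Snrpb, Rpn2 and Timeless (r = 0.982 to 0.991), and Ddit3 to Leprot, Rora and Fam134b (r = 0.974 to 0.978). Hspa5 was nearest to Ctsc, Creb1 and Rin2 (all r = 0.999), Chac1 to Dusp4, Cd9 and Adss (r = 0.982 to 0.989) and Trib3 to Gmds, Ilf2 and Mgst3 (r = 0.989 to 0.993). Herpud1 was nearest to Itm2b, Atrnl1 and Clec4a3 (r = 0.990 to 0.991) and Dnajb9 to Sla, Fabp5 and Rnase4 (r = 0.974 to 0.979).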

How the data were processed

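BMDM RNA was sequenced in 12 libraries, 3 for each of 4 groups. Libraries were made with a stranded mRNA kit. The authors deposited 1 value per gene and library, and the submitters' processing notes name bcl2fastq 2.20.0.422, cutadapt 1.18, TopHat2 2.0.13, Cuffdiff 2.2.1 and mm10. The methods name rat rn5, but the symbols are those of mouse genes. The deposited tables name no unit and were taken to hold FPKM, the unit Cuffdiff gives. Annotation and library normalization are not given in those sources. FPKM holds no counts, so the depth is unknown beyond the estimate from low values, in which 72.1% to 81.8% of low values per library were within 0.1 of a multiple of what 1 fragment is worth, and this estimate covers counting error only.

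Groups came from the labels. The 10581 of 23997 genes that reached 1 FPKM in 3 or more libraries were fitted on log2(FPKM + 1) with R 4.3.3 and limma 3.58.1, using group means and a mean-variance trend, and p-values were adjusted over all genes tested by Benjamini-Hochberg. The thresholds (p under 0.05, FDR under 0.1, more than 2-fold) are those of the methods, used in both directions. The script was tested on simulated data. The members and the gene lists were chosen with earlier results of these data known. From each list the 3 genes with the highest mean are named, with the sensors Ern1, Eif2ak3 and Atf6, and for each member the 3 genes of nearest pattern. Mars1, Adgre1 and Jchain were matched through synonyms, and Ly6g was not matched. Positions are from GENCODE M21, promoters from RefSeq (GRCm38.p6). Tables and figures used matplotlib 3.10.9, numpy 2.4.6 and pandas 2.3.3 in Python 3.11.15. Alternatives covered the pseudocount, filter, scaling, groups fitted, replicate block, trend, thresholds and leaving out each library, and scaling to equal FPKM sums was chosen after seeing the data. Replicates had a median coefficient of variation of 3.03% to 5.12% at 10 FPKM or more.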

Additional observations from a re-analysis of the deposited data

Results flagged for a closer look

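The response to LPS differed between the genotypes for 9 of the 10 genes by the interaction term of the limma fit, given here as Pim1-/- minus WT on the log2(FPKM + 1) scale. It was lower in Pim1-/- cells for Xbp1 (-0.78), Hspa5 (-0.71), Atf4 (-0.66) and Atf5 (-0.63). It was higher for Chac1 (0.89), Ddit3 (0.73), Asns (0.47), Trib3 (0.32) and Herpud1 (0.27). Over all genes tested 31.3% passed as higher and 34.7% as lower, so a difference of this kind is common in these libraries. Trib3 and Chac1 were tested only through Pim1-/- libraries, and of the other 8 genes 3 passed as higher and 4 as lower. Groups of 3 libraries are too small for a test of single outlying libraries, and none was made.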

How the results depend on the processing

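Of 867 alternative values for the 10 genes and Pim1, 828 kept their direction and their side of the threshold, 11 no longer passed, 7 newly passed and 21 changed sign. Between genotypes the sign changed only for Ddit3 in untreated cells (0 without WT replicate 2, and -0.14 without WT replicate 3, where it passed). With LPS in WT cells, quantile normalization gave Trib3 0.13, Xbp1 -0.32 and Herpud1 -0.68, equal FPKM sums gave Xbp1 -0.04, Asns -0.32, Chac1 -0.09 and Herpud1 -0.77, and Herpud1 was 0 without LPS-treated WT replicate 1. In Pim1-/- cells, quantile normalization gave Atf4 -0.01, Atf5 -0.23 and Herpud1 -0.01, equal sums gave Atf5 -0.44, Trib3 -0.37 and Herpud1 -0.35, and Xbp1 was 0.01 without untreated replicate 1 or LPS-treated replicate 3. The difference in response was -0.10 for Asns, 0.13 for Dnajb9 and 0.21 for Pim1 after quantile normalization, and 0.08 for Dnajb9 with equal sums. The cause was not tested.

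Of all genes, 823 were called between untreated genotypes, 916 with LPS, 3686 with LPS in WT, 2649 with LPS in Pim1-/- cells and 706 for the difference in response. An FDR under 0.05 without a fold threshold gave 7904, 8194, 9453, 8954 and 6657 genes, with 9, 9, 8, 8 and 9 members, since it drops the fold. A pseudocount of 0.1 gave 1442 genes between genotypes with LPS, 1075 for the difference in response (1 member) and 2 members with LPS in Pim1-/- cells. A filter of 5 FPKM left 2 members called between genotypes with LPS, since Trib3 and Chac1 were then not tested. Quantile normalization gave 0 members with LPS in WT cells and 1 for the difference in response. With equal sums 4233 genes were called with LPS in Pim1-/- cells, and between genotypes with LPS 611 were higher and 377 lower instead of 371 and 545. Leaving out 1 library gave 740 to 823, 887 to 1002, 3623 to 3679, 2585 to 2664 and 655 to 721 genes, with 3 to 4, 4 to 4, 2 to 2, 1 to 2 and 0 to 0 members. The second member with LPS in Pim1-/- cells was called without untreated replicate 2.

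Same-numbered libraries did not deviate together in every pair (r over 5416 genes of -0.05 to 0.28 between genotypes and -0.07 to 0.34 between treatments), and 2 to 5 of the 6 libraries of a pair of groups were closest to their own number, so the numbers were not taken as a pairing. With the replicate number as a block 824, 915, 3686, 2649 and 707 genes were called, and 3, 4, 2, 1 and 0 members.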

Other observations

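Heat shock proteins listed as cytosolic, which answer to HSF1 rather than to the ER sensors, were mostly higher in untreated Pim1-/- cells (7 of 11 passed as higher, 1 as lower, median 0.33) and mostly lower after LPS (4 as higher, 7 as lower, median -0.40), where 33.4% of all genes were higher without LPS and 42.2% lower with it. The list also holds Hspd1 and Hspe1, which encode mitochondrial chaperonins, so these counts are not of cytosolic proteins only. Hspa8, the constitutive HSC70, was at 771.2 ± 28.9 FPKM in untreated WT and 971.9 ± 16.8 in untreated Pim1-/- cells, and at 1796 ± 32.3 and 1169 ± 28.6 after LPS. Hsp90aa1 was higher at both times (1.45 and 0.32), and Hsp90ab1 did not pass without LPS (-0.02) and was lower with it (-0.29). Hspa1a and Hspa1b are nearly identical, so their values are uncertain, and Hspb1 was too low to be tested.

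Some further genes of the lists were chosen after their values were seen. Psat1, which follows Phgdh in serine synthesis, was higher in untreated Pim1-/- cells (4.41 ± 0.0851 against 28.4 ± 1.54 FPKM) and did not differ past the threshold after LPS (21.7 ± 0.896 against 23.1 ± 1.43, 0.08, limma adjusted p = 0.17). It was higher with LPS in WT cells (2.07) and lower in Pim1-/- cells (-0.29). Manf, a secreted ER stress protein, was at 18.6 ± 0.838 and 20.8 ± 0.295 FPKM without LPS and at 67.5 ± 2.01 and 23.3 ± 0.954 with it, the largest difference of the ER chaperone list after LPS (-1.50, limma adjusted p = 2.3e-13). Slc7a11, the cystine transporter, was higher with LPS in both genotypes (2.47 in WT and 3.03 in Pim1-/- cells), at 8.97 ± 0.484 and 20.1 ± 0.304 FPKM. Its list had 5 genes called higher with LPS in WT cells (20.1% of all genes), up to 2.70, and 2 in Pim1-/- cells (14.6%).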
